A study of Mus musculus with 6 samples.

Results

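The p38 and JNK kinases stand at the end of stress-activated kinase cascades, and their genes below the MAP3 kinases are described here as 10 genes of the 18446 in the table. They were listed by name, with earlier results of these data known, and all 10 were found through their NCBI gene identifiers. Of these, 4 encode MAP2 kinases (Map2k3, Map2k6, Map2k4 and Map2k7), 4 encode the MAP kinases themselves (Mapk14 and Mapk11 for p38, Mapk8 and Mapk9 for JNK), and 2 encode the p38-activated kinases MK2 and MK3 (Mapkapk2 and Mapkapk3). RNA sequencing was done on naive CD4+ T cells, sorted as CD44 low and CD62L high from spleen and lymph nodes of mice aged 6 to 8 weeks on a C57BL/6 background. The 6 libraries came from mice with the genotype Zak-/- and from wild-type (WT) mice, each before culture with antibodies against CD3 and CD28 (0 h) and after 6 h and 48 h with them. The growth notes instead describe mice lacking the gene conditionally in T cells and name no Cre driver, and they do not say how many mice gave each library. There was 1 library per group, so a difference between 2 libraries has no replicate check and no p-value. The p-values given come from an additive fit over all 6 libraries, or, where stated, from its repeats with another scaling or without the filter.

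In this pathway a MAP3 kinase phosphorylates a MAP2 kinase, which phosphorylates a MAP kinase on a threonine and a tyrosine of its activation loop. MKK3 and MKK6 (Map2k3, Map2k6) act on p38, MKK7 (Map2k7) on JNK, and MKK4 (Map2k4) on JNK and in some settings on p38. Zak, encoded by Map3k20, is a MAP3 kinase known for switching on p38 and JNK after ribotoxic stress. In T cells p38 and JNK are known for shaping cytokine production and helper differentiation. Signalling through them depends on phosphorylation, which RNA levels do not measure.

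Levels are FPKM as deposited, a unit per transcript length, so that genes can be set beside each other. Differences are on the log2(FPKM+1) scale without rescaling, and a gene was called higher or lower when 2 libraries differed by 2-fold or more. Fold changes between libraries are ratios of FPKM+1, and this scale understates the change of low genes. The share of called genes among 10347 genes, those averaging at least 1 FPKM across the libraries, is given as the background. All 10 cascade genes passed that filter, and 9 of them had a mean of 5 FPKM or more, Map2k6 being the one below. Summed FPKM per library lay between 496045 and 546113, and the read depth is not known from these values. Map3k20 stood at 0.10, 0.10 and 1.61 FPKM at 0, 6 and 48 h in the libraries labelled Zak-deficient, and at 0.17, 0.19 and 1.35 FPKM in WT. Its mean of 0.59 FPKM is below the filter, and its 0 h and 6 h values are near 0 in single libraries. The gene-level value therefore does not separate the labels at 48 h and cannot be relied on to do so at 0 h or 6 h. Each direction between genotypes below rests on the label. The 5 T cell markers summed to between 1546 and 1604 FPKM under the label Zak-deficient and between 1492 and 1572 FPKM in WT. The 5 myeloid markers summed to between 0.65 and 1.33 FPKM under the label Zak-deficient and between 0.61 and 1.01 FPKM in WT, with Cd14 at or near 0. Under the label Zak-deficient the 4 B cell markers summed to between 5.07 and 6.94 FPKM, the 2 CD8 markers to between 10.5 and 12.8 FPKM and the 3 NK cell markers to between 1.55 and 3.51 FPKM. In WT these sums were between 3.22 and 5.19 FPKM, between 8.88 and 11.7 FPKM, and between 1.10 and 2.76 FPKM. Over all libraries the CD8 sum was mostly Cd8b1 (8.11 to 12.04 FPKM), with Cd8a at 0.5 to 1.02 FPKM. The NK cell sum was mostly Eomes (0.99 to 3.33 FPKM), with Ncr1 at most 0.09 FPKM and Klrb1c at most 0.29 FPKM. In bulk samples, fewer cells of a type and less RNA per cell cannot be told apart.

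Map2k3 and Mapk11 were the genes of the cascade that passed the 2-fold rule after stimulation. The stretches before their transcription starts are therefore shown, with that of Mapk14, the other main p38 gene, whose level did not pass it. All 10 genes had at least 1 promoter in RefSeq (GRCm38.p6, the assembly also called mm10). Each stretch has 228 bases and ends 22 bases before the RefSeq start, which keeps it clear of the transcribed part. Capitals mark the GC box GGGCGG on either strand, the element bound by Sp family factors.
Map2k3, chr11:60931804-60932031, plus strand: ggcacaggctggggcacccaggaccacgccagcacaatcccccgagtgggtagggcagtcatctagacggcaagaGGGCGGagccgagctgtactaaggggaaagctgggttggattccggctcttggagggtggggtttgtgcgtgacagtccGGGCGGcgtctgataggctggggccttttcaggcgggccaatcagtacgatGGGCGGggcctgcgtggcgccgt
Mapk11, chr15:89149629-89149856, minus strand: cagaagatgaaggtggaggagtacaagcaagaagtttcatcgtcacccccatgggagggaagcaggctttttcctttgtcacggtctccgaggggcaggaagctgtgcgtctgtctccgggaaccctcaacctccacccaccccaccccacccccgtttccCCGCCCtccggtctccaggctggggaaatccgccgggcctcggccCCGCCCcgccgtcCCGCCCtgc
Mapk14, chr17:28691092-28691319, plus strand: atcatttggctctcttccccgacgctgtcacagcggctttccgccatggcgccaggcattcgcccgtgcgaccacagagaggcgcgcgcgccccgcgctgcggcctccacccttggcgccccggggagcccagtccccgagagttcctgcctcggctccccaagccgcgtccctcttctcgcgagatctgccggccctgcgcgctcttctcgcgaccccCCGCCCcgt
Map2k3 and Mapk11 held 3 GC boxes each and Mapk14 held 1. Among windows not printed, the first promoter of Mapk8 held more GC boxes than any of these, and that of Mapk9 also held the element. The Mapk8 window (chr14:33447181-33447408, minus strand) is partly inside the RefSeq gene model, which ends at 33447353, and some of its GC boxes lie there. Its count is therefore not all from upstream sequence. Neither Mapk8 nor Mapk9 passed the rule. The first promoters of Map2k4, Map2k6, Map2k7, Mapkapk2 and Mapkapk3 held none. A GC box occurred in 52.2% of 10638 such windows of genes past the filter. Motifs were also searched on both strands for AP-1 (TGANTCA), the cyclic AMP response element (TGACGTCA), the E-box (CACGTG), Egr factors (GCGNGGGCG) and NF-kB (GGGRNWYYCC). In these, N is any base, R is A or G, W is A or T, and Y is C or T. Only exact matches to these patterns were counted. None of these was in the 3 windows, where the shares among filtered genes were 3.89% for AP-1, 2.09% for the cyclic AMP response element, 7.34% for the E-box, 7.31% for Egr and 4.03% for NF-kB. The NFAT core TTTCC, left in lower case, occurred in 51.5% of windows and in all 3 of these, 3 times in Mapk11 and once each in Map2k3 and Mapk14. No motif searched overlapped another in these windows. A match or its absence describes the letters of the window and says nothing of binding.

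Map2k3, which encodes MKK3, showed the largest response of the cascade. It stood at 15.2, 169 and 41.5 FPKM at 0, 6 and 48 h in the libraries labelled Zak-deficient and at 13.9, 166 and 43.25 FPKM in WT. Both 6 h libraries were far above the 4 others, and both 48 h libraries lay between the 6 h and 0 h levels. At 6 h it was 10.5-fold higher than at 0 h under the label Zak-deficient and 11.3-fold higher in WT. These changes ranked 53rd (labelled Zak-deficient) and 42nd (WT) from the top among the 10347 genes. At 48 h it was 4.005-fold lower than at 6 h under the label Zak-deficient and 3.78-fold lower in WT, but still 2.62-fold (labelled Zak-deficient) and 2.98-fold (WT) above 0 h. Among the 10 genes Map2k3 ranked 7 at rest under the label Zak-deficient and 8 in WT, and 1 at 6 h under both.

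The other kinase that acts on p38 in this tier, MKK6, had little RNA. Map2k6 stood at 1.73, 0.97 and 1.90 FPKM at 0, 6 and 48 h under the label Zak-deficient and at 1.89, 1.04 and 2.29 FPKM in WT. Its lowest value under each label was at 6 h, where Map2k3 had its highest, and no difference between times reached 2-fold on the log2(FPKM+1) scale. At these levels the added 1 FPKM decides this: with 0.1 FPKM added instead, the 48 h library in WT was past 2-fold above the 6 h one (log2 difference 1.07). The ratio of Map2k3 to Map2k6 FPKM was 8.79, 175 and 21.9 at 0, 6 and 48 h under the label Zak-deficient and 7.33, 160 and 18.9 in WT. The 6 h ratio rests on about 1 FPKM of Map2k6, and with 1 FPKM added to both genes it was 86.4 under the label Zak-deficient and 82.0 in WT.

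Neither MAP2 kinase gene of the JNK branch passed the rule. Map2k7 was the most abundant cascade gene at rest, with 45.1, 54.1 and 30.2 FPKM at 0, 6 and 48 h under the label Zak-deficient and 45.3, 43.9 and 30.9 FPKM in WT. Its lowest values were at 48 h, 1.48-fold (labelled Zak-deficient) and 1.45-fold (WT) under 0 h. Map2k4 stood at 18.3, 12.3 and 14.6 FPKM under the label Zak-deficient and at 19.1, 13.7 and 15.8 FPKM in WT. Its lowest level was at 6 h under both labels, 1.45-fold (labelled Zak-deficient) and 1.37-fold (WT) below 0 h.

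**Figure D1:**
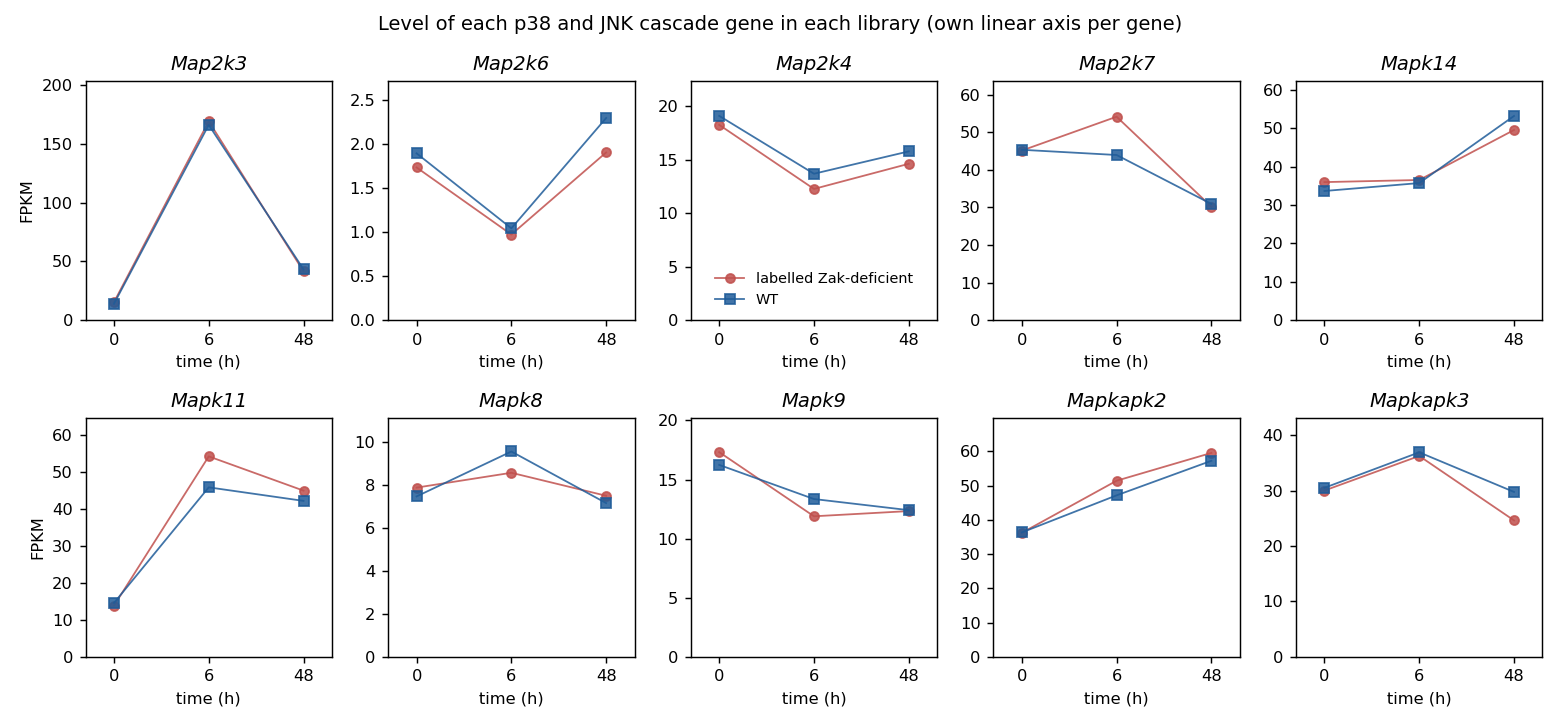
FPKM of each cascade gene (linear axes from 0, 1 scale per gene) at 0, 6 and 48 h; circles are the libraries labelled Zak-deficient and squares WT, 1 library per point, with no error bars. Map2k3 peaks at 6 h at 169 FPKM (labelled Zak-deficient) and 166 FPKM (WT), and Mapk11 is above its 0 h level at both later times.

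The share of Map2k3 in the RNA of the 4 MAP2 kinase genes was highest at 6 h. It made up 18.9%, 71.5% and 47.1% of their summed FPKM at 0, 6 and 48 h under the label Zak-deficient and 17.3%, 73.9% and 46.9% in WT. Map2k7 made up 56.2%, 22.9% and 34.2% under the label Zak-deficient and 56.5%, 19.5% and 33.5% in WT. Their sum was 80.3, 237 and 88.2 FPKM under the label Zak-deficient and 80.2, 225 and 92.2 FPKM in WT. A share is of RNA per length and does not give the share of protein or of activity.

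Mapk11, which encodes p38 beta, was the other gene past the rule. It stood at 13.8, 54.3 and 45.0 FPKM at 0, 6 and 48 h in the libraries labelled Zak-deficient and at 14.6, 45.9 and 42.25 FPKM in WT. All 4 stimulated libraries were above both resting ones, and unlike Map2k3 its level at 48 h was close to that at 6 h. It was 3.73-fold higher at 6 h than at 0 h under the label Zak-deficient and 3.01-fold higher in WT. At 48 h it was 3.10-fold (labelled Zak-deficient) and 2.78-fold (WT) higher than at 0 h.

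Mapk14 encodes p38 alpha, the broadly expressed form of the kinase. It stood at 36.01, 36.6 and 49.6 FPKM at 0, 6 and 48 h under the label Zak-deficient and at 33.7, 35.8 and 53.3 FPKM in WT. Its 0 h and 6 h values lay within 3 FPKM of each other over both labels, and its highest values were at 48 h, 1.37-fold (labelled Zak-deficient) and 1.56-fold (WT) above 0 h. The ratio of Mapk14 to Mapk11 was 2.60, 0.67 and 1.10 at 0, 6 and 48 h under the label Zak-deficient and 2.31, 0.78 and 1.26 in WT. Mapk11 RNA thus exceeded Mapk14 RNA at 6 h under both labels and was below it at 0 h and 48 h.

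Mapk12, which encodes p38 gamma, is not one of the 10 genes but lies next to Mapk11, with 904 bases between their RefSeq models. It stood at 0.95, 3.43 and 9.87 FPKM under the label Zak-deficient and at 0.96, 3.69 and 7.67 FPKM in WT. As ratios of FPKM+1, Mapk12 was 2.27-fold (labelled Zak-deficient) and 2.39-fold (WT) higher at 6 h than at 0 h. At 48 h it was 5.57-fold (labelled Zak-deficient) and 4.42-fold (WT) higher than at 0 h. These folds understate the change of a gene this low at rest. Mapk13, for p38 delta, neighbours Mapk14 and stood between 0 and 0.08 FPKM in all 6 libraries. Of the summed RNA of these 4 p38 genes, Mapk11 made up 27.2%, 57.6% and 43.1% at 0, 6 and 48 h under the label Zak-deficient and 29.6%, 53.8% and 40.9% in WT. The sum was 50.8, 94.3 and 105 FPKM under the label Zak-deficient and 49.2, 85.4 and 103 FPKM in WT. It was thus higher in all 4 stimulated libraries than in the resting ones.

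The JNK genes had the smallest spans of the 10 on the log2 scale, 0.37 for Mapk8 and 0.51 for Mapk9. Mapk9, for JNK2, stood at 17.3, 11.9 and 12.3 FPKM at 0, 6 and 48 h under the label Zak-deficient and at 16.2, 13.35 and 12.4 FPKM in WT. Mapk8, for JNK1, stood at 7.87, 8.56 and 7.49 FPKM under the label Zak-deficient and at 7.46, 9.55 and 7.15 FPKM in WT. No difference between times reached 1.5-fold for either gene. Mapk9 exceeded Mapk8 in every library, by 2.20, 1.39 and 1.65 times at 0, 6 and 48 h under the label Zak-deficient and by 2.18, 1.40 and 1.74 times in WT. Mapk10, the JNK3 gene known mainly from neurons, stood between 0 and 0.11 FPKM.

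**Figure D2:**
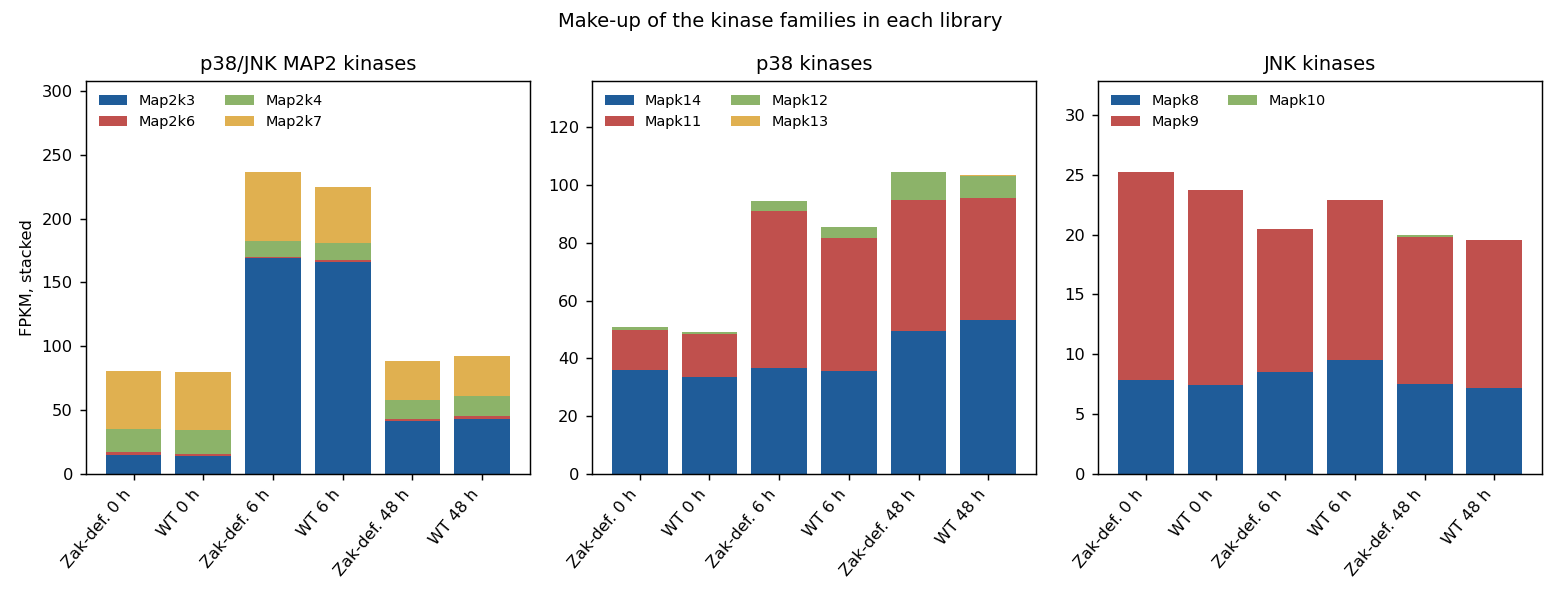
FPKM of the genes of each kinase family stacked per library (linear axis, 1 bar per library, the bar labelled Zak-deficient left of WT at each time). Map2k3 fills most of the MAP2 kinase bar at 6 h (71.5% under the label Zak-deficient, 73.9% in WT), and Mapk11 is the larger p38 segment at 6 h (57.6% under the label Zak-deficient, 53.8% in WT).

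The kinases activated by p38 had no member past the rule. Mapkapk2, for MK2, which controls the stability of cytokine messenger RNAs, stood at 36.2, 51.45 and 59.6 FPKM at 0, 6 and 48 h under the label Zak-deficient and at 36.3, 47.2 and 57.3 FPKM in WT. Its level was highest at 48 h in both, 1.63-fold (labelled Zak-deficient) and 1.56-fold (WT) above 0 h. Mapkapk3, for the related kinase MK3, stood at 30.0, 36.25 and 24.6 FPKM under the label Zak-deficient and at 30.5, 36.9 and 29.8 FPKM in WT. The ratio of Mapkapk2 to Mapkapk3 was 1.21, 1.42 and 2.42 at 0, 6 and 48 h under the label Zak-deficient and 1.19, 1.28 and 1.92 in WT.

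Counted over the cascade, 2 of 10 genes were higher at 6 h than at 0 h under each label, against a background of 9.08% under the label Zak-deficient and 8.93% in WT. None was lower, against 1.52% under the label Zak-deficient and 1.39% in WT. At 48 h the same 2 genes were higher than at 0 h, against a background of 18.4% under the label Zak-deficient and 17.8% in WT, a share near that of all genes. None was lower, where the background was 12% under the label Zak-deficient and 12.3% in WT. Between 48 h and 6 h, Map2k3 alone was lower (background 6.55% under the label Zak-deficient and 6.14% in WT) and none was higher (10.8% under the label Zak-deficient and 9.32% in WT). The median log2 difference of the 10 genes at 6 h was 0.18 under each label, beside -0.08 (labelled Zak-deficient) and -0.06 (WT) for all genes. At 48 h it was 0.01 under the label Zak-deficient and 0.08 in WT, beside 0.06 (labelled Zak-deficient) and 0.00 (WT) for all genes. Apart from Map2k3 and Mapk11 the cascade thus stayed within 2-fold of 0 h at both times under both labels.

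The additive limma fit also gives the time differences, averaged over the labels. It sets them against how far the difference between the labels varied over the times, moderated by a trend over all genes. At 6 h 4 of 10 genes were higher than at 0 h at a Benjamini-Hochberg adjusted p under 0.05 (Map2k3, Mapk11, Mapkapk2 and Mapkapk3), beside 26.3% of all genes. At 6 h 3 were lower (Map2k4, Map2k6 and Mapk9), beside 30.4%. At 48 h 4 were higher (Map2k3, Mapk11, Mapk14 and Mapkapk2), beside 39.0%, and 3 lower (Map2k4, Map2k7 and Mapk9), beside 35.2%. These shares lie near those of all genes. By this fit Mapkapk2 was higher by 0.43 ± 0.07 at 6 h (SE on the log2 scale, adjusted p 0.003316 by limma) and Map2k4 differed by -0.50 ± 0.08 (adjusted p 0.002808 by limma). The change of Mapkapk3 at 6 h (0.27 ± 0.09, adjusted p 0.04458 by limma) lost its call under each rescaling of the libraries and without the filter, with adjusted p between 0.09527 and 0.1347. With a common sum Mapkapk3 was called lower at 48 h (adjusted p 0.049). The spread in this fit is between single libraries of different genotype, not between replicates.

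**Figure D3:**
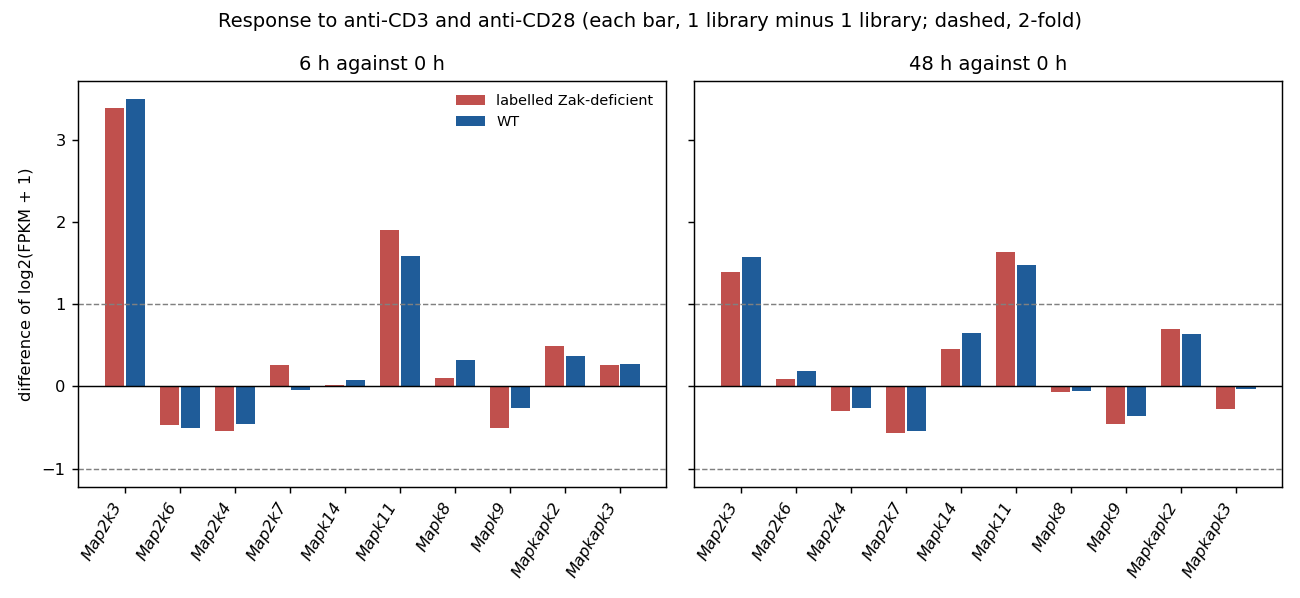
Difference of log2(FPKM+1) at 6 h (left) and 48 h (right) against 0 h for each cascade gene, with the label Zak-deficient left of WT; dashed lines mark 2-fold and there are no error bars. Map2k3 and Mapk11 pass the upper line at both times under both labels, and no gene passes the lower line.

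Between the genotype labels, none of the 10 genes differed by 2-fold at any time, nor by 1.5-fold. The background for 2-fold was 0.271% of genes at 0 h, 0.242% at 6 h and 2.23% at 48 h, and for 1.5-fold 1.12%, 1.65% and 4.22%, so that few genes of any kind passed. The widest differences were 1.09-fold at 0 h (Map2k3, 15.2 FPKM under the label Zak-deficient against 13.9 in WT), 1.23-fold at 6 h (Map2k7, 54.1 FPKM under the label Zak-deficient against 43.9 in WT) and 1.201-fold at 48 h (Mapkapk3, 24.6 FPKM under the label Zak-deficient against 29.8 in WT). All 30 values lay within the central 95% of all filtered genes, which ran on the log2 scale from -0.34 to 0.34 at 0 h, from -0.45 to 0.41 at 6 h and from -0.31 to 0.80 at 48 h. The median absolute log2 difference of the 10 genes was 0.07, 0.13 and 0.07 at 0, 6 and 48 h, beside 0.08, 0.14 and 0.09 for all genes. With 1 library per group, these values do not show that the genotypes are alike. With the libraries paired by time in an additive limma fit over 10347 genes, none of the 10 genes differed between the labels (lowest Benjamini-Hochberg adjusted p 0.833), and none had an unadjusted p under 0.05. Their mean log2 differences over the 3 times ran from -0.10 (Map2k6) to 0.09 (Mapk11), with standard errors between 0.06 and 0.10. In that fit 3 of all genes, 0.029%, passed an adjusted p of 0.05. An unadjusted p under 0.05 was reached by 505 of the 10347 genes, about the share that this threshold passes where no gene differs. It has 2 residual degrees of freedom and counts a genotype difference that varies with time as error. All 4 B cell markers were above 0 in both libraries at 0 h, with a sum of 6.87 FPKM under the label Zak-deficient and 3.22 FPKM in WT, and their part in the differences at rest was not tested.

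**Figure D4:**
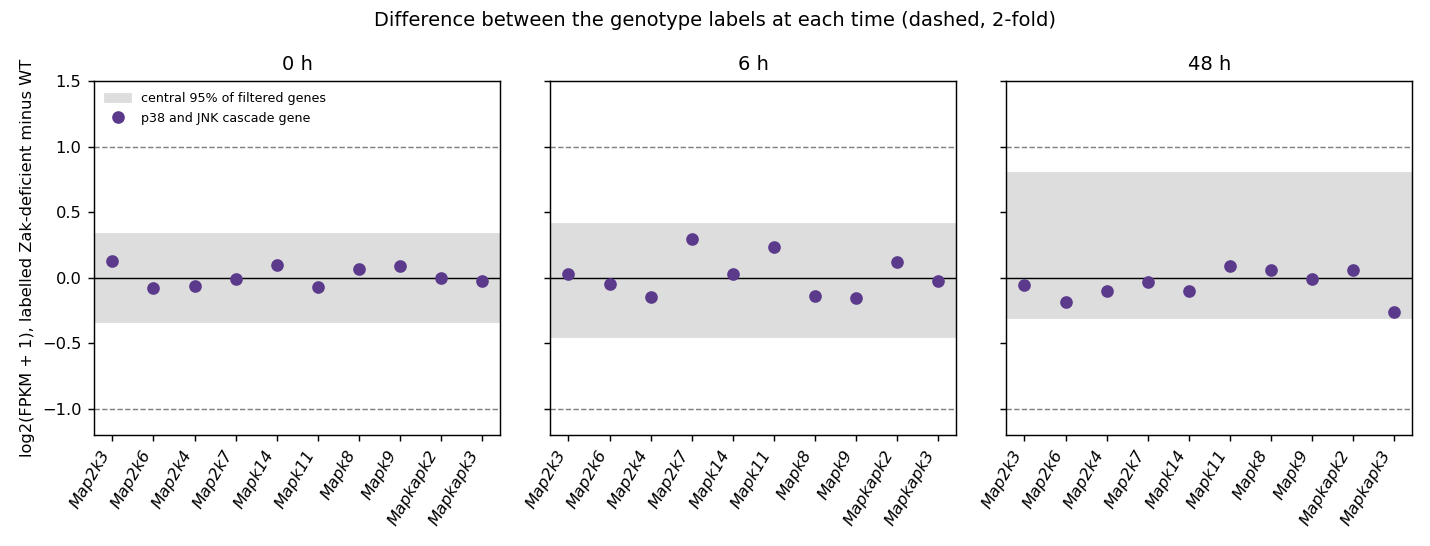
Difference of log2(FPKM+1), labelled Zak-deficient minus WT, for each cascade gene at 0, 6 and 48 h (1 library minus 1 library per point). Grey bands hold the central 95% of 10347 genes and dashed lines mark 2-fold. Every point lies inside its band, the widest being Map2k7 at 6 h (0.29) and Mapkapk3 at 48 h (-0.26).

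The difference of the responses gives how far stimulation moved a gene more under the label Zak-deficient than in WT. At 6 h it was widest for Mapk11 (0.31, from log2 responses of 1.90 under the label Zak-deficient and 1.59 in WT) and Map2k7 (0.30, from 0.26 under the label Zak-deficient and -0.04 in WT). At 48 h the widest was Mapkapk3 (-0.24, from -0.28 under the label Zak-deficient and -0.03 in WT). For Map2k3 it was -0.10 at 6 h and -0.18 at 48 h, small beside responses of 3.39 under the label Zak-deficient and 3.49 in WT at 6 h. The 0 h libraries enter both these values and the comparison at rest. No spread over all genes was worked out for the differences of responses, which combine single libraries, and none was tested. For scale, the comparison of the labels at 6 h alone had a central 95% of all filtered genes from -0.45 to 0.41.

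Other genes of MAP kinase signalling were taken from lists made by name. The ERK arm had a median log2 difference of -0.00 under the label Zak-deficient and -0.08 in WT at 6 h, and of -0.19 (labelled Zak-deficient) and -0.14 (WT) at 48 h. It had 1 of 13 genes higher at 6 h under both labels, Mapk6, the atypical kinase ERK3 (2.11-fold under the label Zak-deficient and 2.01-fold in WT). At 48 h it had 2 lower, the MAP3 kinase gene Braf (2.28-fold under the label Zak-deficient, 2.07-fold in WT) and the ERK5 gene Mapk7 (2.10-fold under the label Zak-deficient, 2.04-fold in WT). The 14 MAP3 kinase genes past the filter had medians of -0.39 (labelled Zak-deficient) and -0.57 (WT) at 6 h and of -0.28 (labelled Zak-deficient) and -0.23 (WT) at 48 h. Map3k8, known mainly for activating the ERK branch, was 3.19-fold (labelled Zak-deficient) and 3.01-fold (WT) higher at 6 h and 4.10-fold (labelled Zak-deficient) and 4.03-fold (WT) higher at 48 h. Taok1 was 2.33-fold (labelled Zak-deficient) and 2.37-fold (WT) lower at 48 h, and Map3k14, known from the alternative NF-kB pathway, 2.42-fold (labelled Zak-deficient) and 2.26-fold (WT) lower. The background for both labels together was 7.64% higher and 0.512% lower at 6 h, and 16.4% higher and 10.2% lower at 48 h.

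The 10 scaffold and adaptor genes past the filter had medians of 0.04 under the label Zak-deficient and -0.13 in WT at 6 h, and of -0.63 (labelled Zak-deficient) and -0.47 (WT) at 48 h. Sh3rf1, the JNK scaffold POSH, was higher than at 0 h under both labels. It was 4.46-fold (labelled Zak-deficient) and 3.79-fold (WT) higher at 6 h and 4.56-fold (labelled Zak-deficient) and 4.44-fold (WT) higher at 48 h, with 1.89, 11.9 and 12.2 FPKM under the label Zak-deficient and 1.86, 9.83 and 11.7 FPKM in WT. Mapk8ip3, the JNK scaffold JIP3, was 2.64-fold (labelled Zak-deficient) and 2.36-fold (WT) lower at 48 h. Gadd45b, which binds the MAP3 kinase MEKK4 and MKK7, stood at 23.0, 58.5 and 4.39 FPKM under the label Zak-deficient and at 34.1, 59.3 and 5.33 FPKM in WT, and was 4.46-fold (labelled Zak-deficient) and 5.55-fold (WT) lower at 48 h than at 0 h. Its relative Gadd45g was 5.46-fold (labelled Zak-deficient) and 2.88-fold (WT) higher at 48 h. Gadd45g was low at rest, with 0.36, 2.25 and 6.43 FPKM under the label Zak-deficient and 1.05, 2.51 and 4.91 FPKM in WT.

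Phosphatases remove the activating phosphates from MAP kinases. Of 11 phosphatase genes past the filter, 4 were higher at 6 h under both labels (Dusp6, Dusp2, Dusp5 and Dusp4), where 7.64% of all genes were. At 48 h 4 were higher (Dusp6, Dusp2, Dusp14 and Dusp4), beside 16.4% of all genes, and 2 lower (Dusp10 and Dusp1), beside 10.2%. Dusp14 stood at 0.04, 0.13 and 2.51 FPKM under the label Zak-deficient and at 0.09, 0.17 and 3.18 FPKM in WT. With a mean of 1.02 FPKM, Dusp14 passed the filter only through its 48 h values. Its call at 48 h is therefore not separate from the filter. The median log2 difference of the list was 0.25 (labelled Zak-deficient) and 0.10 (WT) at 6 h and 0.82 (labelled Zak-deficient) and 0.74 (WT) at 48 h. Dusp2 stood at 32.0, 331 and 148 FPKM under the label Zak-deficient and at 35.02, 276 and 138 FPKM in WT, and was highest at 6 h like Map2k3. Dusp10, which acts on p38 and JNK, stood at 76.2, 32.8 and 10.5 FPKM under the label Zak-deficient and at 58.75, 31.3 and 10.3 FPKM in WT. It was 6.73-fold (labelled Zak-deficient) and 5.28-fold (WT) lower at 48 h than at 0 h. Dusp1, also active on p38 and JNK, was 2.20-fold (labelled Zak-deficient) and 2.63-fold (WT) lower at 48 h. The 14 genes of kinases and substrates further down had medians of -0.04 (labelled Zak-deficient) and -0.16 (WT) at 6 h and of -0.16 (labelled Zak-deficient) and -0.29 (WT) at 48 h. Among them Zfp36l1 (3.66-fold under the label Zak-deficient, 2.996-fold in WT) and Zfp36 (2.90-fold under the label Zak-deficient, 2.31-fold in WT) were higher at 6 h. Zfp36 encodes tristetraprolin, a messenger RNA decay factor that MK2 phosphorylates. The transcription factor gene Mef2d, whose product p38 can phosphorylate, was 3.95-fold (labelled Zak-deficient) and 3.63-fold (WT) lower at 48 h, while Jund, an AP-1 gene and JNK substrate, was 2.61-fold (labelled Zak-deficient) and 2.26-fold (WT) higher.

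The profiles most like those of Map2k3 and Mapk11 were sought over all 6 libraries, as the smallest root mean square distance between log2(FPKM+1) values centred on each gene's mean. For Map2k3 these were Gfi1, a transcriptional repressor of lymphocytes (0.08), the nuclear receptor gene Nr4a2 (0.24) and the lymphotoxin alpha gene Lta (0.25). Gfi1 stood at 9.80, 104 and 25.3 FPKM at 0, 6 and 48 h under the label Zak-deficient and at 8.61, 91.5 and 27.25 FPKM in WT. For Mapk11 they were Tbrg4 (0.03), Hpdl (0.04) and Tomm40, the channel of mitochondrial protein import (0.05). Tbrg4 stood at 15.6, 58.0 and 49.2 FPKM under the label Zak-deficient and at 16.9, 49.6 and 46.7 FPKM in WT. Hpdl was listed at rest at 0 (labelled Zak-deficient) and 0.04 FPKM (WT) and lay between 2.06 and 2.63 FPKM after stimulation, so its likeness is on a scale that compresses low values. Hpdl also passed the filter only through its stimulated values, so its likeness to a gene higher after stimulation is not separate from the filter. All these values come from the same 6 libraries, whose 3 times set most of each profile.

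Per RefSeq, 4 of the 10 genes overlap another gene model. Map2k4 contains the microRNA gene Mir744, Map2k6 overlaps the long non-coding gene Gm39446, and Mapk14 and Mapkapk2 overlap the pseudogenes Gm4356 and Gm25549. The labels do not say whether the counting used strand, so reads of such pairs may not be separated. Map2k3 and Mapk11 overlap no other gene model there.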

How the data were processed

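The authors deposited 1 table of FPKM values (fragments per kilobase of transcript, scaled to mapped fragments) per gene and library. Per the submitters' processing notes, Bowtie and RSEM were used with mm10, without versions or settings. RSEM shares reads among similar transcripts, and gene-level values sum a gene's transcripts. Of 18446 genes, 18326 had a RefSeq symbol and 120 had none. All columns were used. No reads were analysed, and depth and counting error are unknown.

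The 9 comparisons are differences of log2(FPKM+1) between 2 libraries, called at 2-fold. With 1 library per group these have no test. An additive limma fit of genotype and time to log2(FPKM+1) in all 6 libraries (mean-variance trend, Benjamini-Hochberg adjustment over the filtered genes) was added after seeing the data. Alternatives changed the pseudocount, filter, scaling or size rule. The calculations were tested on simulated data. Named genes were all members, list genes past 2-fold under both labels (up to 4 per list, not all printed), and the 3 nearest profiles of members spanning 2-fold. The members, lists and alternatives were chosen with earlier results of these data known. Mapk10, Mapk13 and the motif windows were chosen after seeing the values. Promoters are from RefSeq on GRCm38.p6. Tools were numpy 2.4.6 and pandas 2.3.3 in Python 3.11.15 and limma 3.58.1 in R 4.3.3, with figures from matplotlib 3.10.9.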

Additional observations from a re-analysis of the deposited data

Results flagged for a closer look

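In 2 cases the log2 difference between times had opposite signs under the labels, and this difference was not tested. Map2k7 at 6 h against 0 h gave 0.26 under the label Zak-deficient and -0.04 in WT, a difference of 0.30. Mapk9 at 48 h against 6 h gave 0.05 under the label Zak-deficient and -0.10 in WT, a difference of 0.15. All 4 values are well under the 2-fold rule. The signs for Map2k7 were kept under each pseudocount and scaling tried, whereas the Mapk9 value under the label Zak-deficient was -0.05 with a common sum and -0.09 with median ratio scaling.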

How the results depend on the processing

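Scaling the libraries to a common sum, by median ratio or by upper quartile, and filtering at 5 FPKM or not at all, changed none of the counts of cascade genes past the rule. The log2 response of Map2k3 at 6 h ranged from 3.11 to 3.47 under the label Zak-deficient and from 3.18 to 3.57 in WT, and that of Mapk11 from 1.65 to 1.96 under the label Zak-deficient and from 1.38 to 1.65 in WT. Over all single values 549 of 550 alternatives kept their side of the rule. The exception was Map2k6 at 48 h against 6 h in WT (1.07 with a pseudocount of 0.1 FPKM), which made the number higher there 1 instead of 0. With a 1.5-fold rule 3 genes were higher at 48 h than at 0 h under the label Zak-deficient and 4 in WT, against 2 under each with the 2-fold rule, 1 was higher at 48 h than at 6 h in WT, and 2 were lower at 48 h than at 6 h under the label Zak-deficient. With a 4-fold rule 1 gene was higher at 6 h under each label and 0 at 48 h, and 0 were lower at 48 h than at 6 h in WT. With 1 FPKM added to both genes, the 6 h ratio of Map2k3 to Map2k6 was 86.4 instead of 175 under the label Zak-deficient and 82.0 instead of 160 in WT.

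The background moved more: 70 of 162 all-gene counts changed by over 1.5 times, 36 of them by changing the size rule itself. At 6 h in WT, 810 genes were higher and 279 lower with a common sum, against 924 and 144; under the label Zak-deficient 822 were higher and 333 lower with upper quartile scaling, against 939 and 157. At 48 h against 6 h under the label Zak-deficient, median ratio scaling gave 925 higher and 884 lower, against 1121 and 678. Between the labels at 6 h, a common sum gave 15 higher and 8 lower, against 12 and 13. Scaling moved the median of all genes between the labels at 48 h by -0.16 (median ratio) or 0.11 (upper quartile), and with median ratio Mapk11 there was -0.08 instead of 0.09. The cause of these shifts was not tested. Each group has 1 library and no further replicate. The limma fit paired by time was chosen after seeing the data. Over its alternatives (pseudocount, filter, scaling, each time left out) 0 of the 10 genes differed between the labels, and the number of all genes called, 3 as reported, ran from 0 to 64, the highest without 48 h. A difference between single libraries leaves none to leave out. Precision of Map2k6, at 0.97 to 2.29 FPKM, is limited by depth, which is unknown.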
